A study of Mus musculus with 4 samples.

Results

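Several subunits of the vacuolar H+-ATPase (V-ATPase), the proton pump of acidic organelles and of acid-secreting cell surfaces, exist as isoforms encoded by separate genes, of which one is used by most cells and another mainly by specialised cells. The 10 genes described here form 5 such pairs, each given as the restricted isoform over the ubiquitous one: Atp6v1b1 over Atp6v1b2, Atp6v0d2 over Atp6v0d1, Atp6v1g3 over Atp6v1g1, Atp6v1c2 over Atp6v1c1, and Atp6v0a4 over Atp6v0a1. They were fixed by name, but with earlier results of these data known. All 10 were found among the 53465 genes counted, and the ratio within each pair was computed in every library.

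The pump has a cytosolic V1 part, which hydrolyses ATP, and a membrane V0 part, through which protons pass; a rotor turns between them. Ubiquitous isoforms acidify lysosomes, endosomes and secretory vesicles in nearly all cells. Restricted isoforms are best known from intercalated cells of the kidney, clear cells of the epididymis and osteoclasts, where pumps sit at the cell surface, and in human, mutations of ATP6V1B1 or ATP6V0A4 cause distal renal tubular acidosis. In airway and salivary epithelium, ionocytes, rare cells that depend on the transcription factor FOXI1, are rich in V-ATPase transcripts.

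The cells were sorted from the submandibular gland (SMG) of mice, a major salivary gland, as Fgf10-positive. Adults (postnatal day 60) and pups (postnatal day 7) gave 2 libraries each. All mice were C57BL/6J with the genotype Fgf10CreERT2:Rosa26Tomato fl/fl, a Cre under Fgf10 control that tamoxifen activates and that switches on a red reporter, so that the sort collected cells that used Fgf10 when tamoxifen was given. Tamoxifen was given at 0.1 mg per g of body weight on days 57 and 58 to the adults and on days 4 and 5 to the pups. The labels do not say whether a library came from one animal or several, or whether replicates came from separate animals, and a p-value therefore reflects only the spread among these samples, which may be technical. No library of cells without the Cre or the reporter is among the samples.

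Counts over genes summed to 13791730 and 16585518 in adult libraries, against 7289792 and 21490686 in pup libraries. Pup replicate 1 stood apart. Reads outside annotated features made up 76.7% of its tallied reads, against 9.70% to 10.6% in the other 3 libraries, and 96.6% of 1106 olfactory receptor genes, which belong to the nose, had a count there, against 1.54% to 7.78% elsewhere. A background estimated from those genes and scaled by exon length came to 24.2% of its gene counts and to at most 0.119% in any other library. For the members, this background, an average that need not hold for each gene, is given beside the values of pup replicate 1. As a check of the sort, Fgf10 stood at 195 and 40.3 CPM (counts scaled to library size) in adult libraries, against 27.3 and 24.1 CPM in pup libraries, with 64.5 of the 252 counts in pup replicate 1 expected from background.

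In adult cells, 2 of the 5 restricted isoforms exceeded their ubiquitous partner in both libraries, Atp6v0d2 and Atp6v1b1. Atp6v1c2 led its partner in adult replicate 1 and trailed it in adult replicate 2 per kb of all exons, and trailed it in both by the other lengths tried, Atp6v1g3 stayed below it (ratios 0.229 and 0.261), and Atp6v0a4 had 0 counts in both adult libraries. In pup cells the ubiquitous isoform was the higher one in every pair and both libraries, Atp6v1c2 in pup replicate 1 being within counting error of its partner. Ratios are of reads per kilobase (kb) of exon, and their intervals are 95% exact (Clopper-Pearson) intervals, which cover counting error only. A ratio within a library does not change with library size or scaling factors. In these bulk samples, fewer cells of a type and less RNA per cell cannot be told apart.

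**Figure D1:**
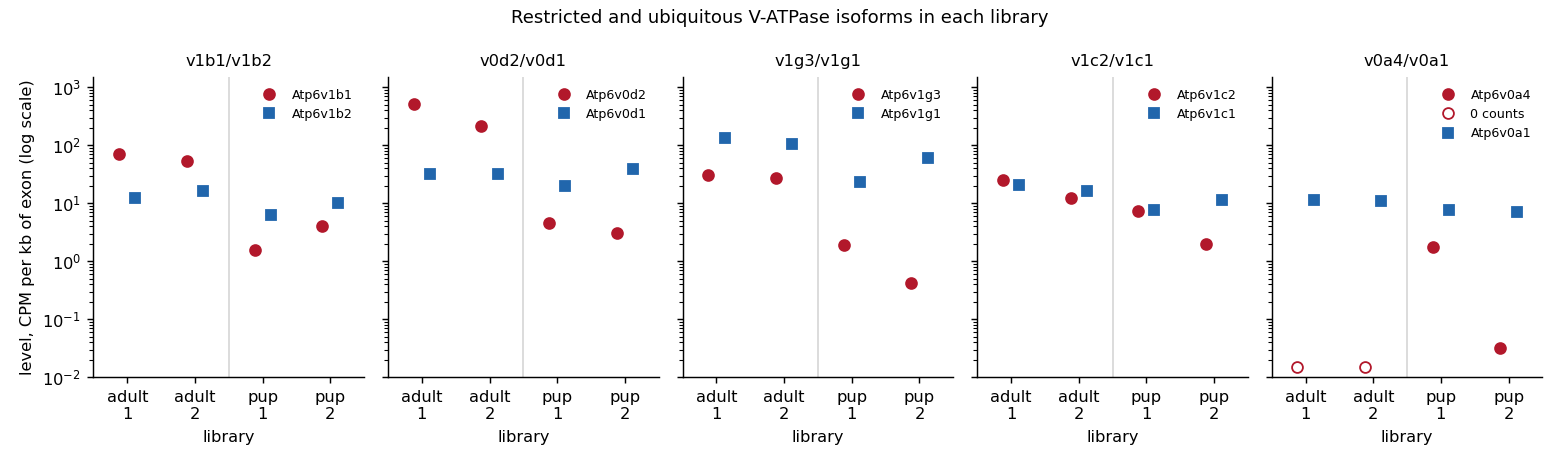
Level of each isoform in each library, in CPM per kb of exon on a log scale, with 1 panel per pair, the restricted isoform as red circles and the ubiquitous one as blue squares; open circles at the bottom mark 0 counts and have no level. Atp6v0d2 stands at 514 and 218 CPM per kb in the adults, above all other points, while Atp6v0a4 is at 0 counts there.

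**Figure D2:**
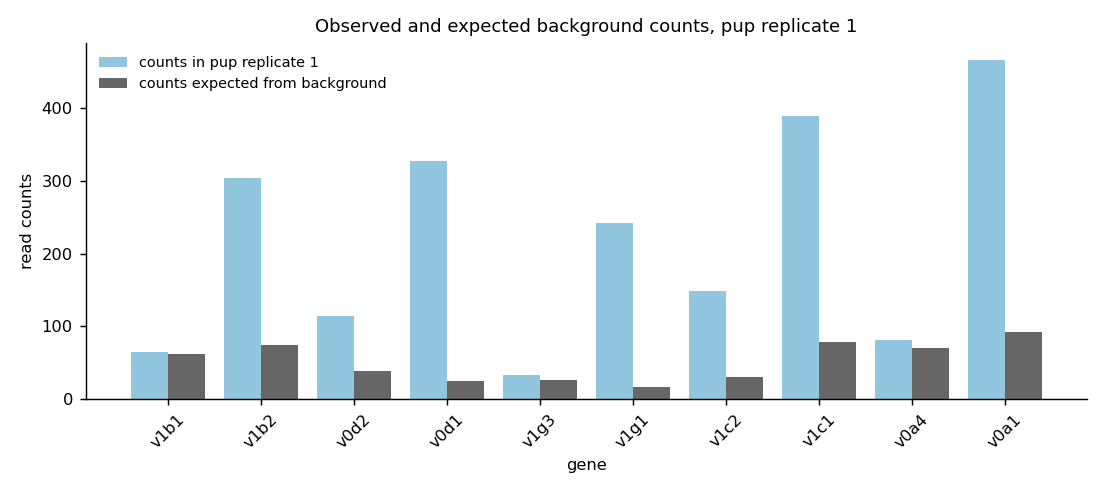
Read counts of the 10 members in pup replicate 1 (light bars) beside the counts expected there from background (dark bars), which scale with exon length. For Atp6v1b1, Atp6v1g3 and Atp6v0a4 the 2 bars are close (64 and 61.4, 33 and 26.5, 81 and 69.7 counts), while the ubiquitous members stand well above theirs.

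The B subunit carries ATP-binding sites of the V1 part together with the A subunit. Atp6v1b1 (ENSMUSG00000006269, chromosome 6, 83742990 to 83758855, plus strand, GRCm38) encodes B1, the form of intercalated cells, and Atp6v1b2 (ENSMUSG00000006273, chromosome 8, 69088646 to 69113711, plus strand) encodes B2. Atp6v1b1 stood at 72.0 and 52.8 CPM per kb in the adults and 1.58 and 4.08 CPM per kb in the pups. Atp6v1b2 stood at 12.2 and 16.4 CPM per kb in the adults and 6.20 and 10.1 CPM per kb in the pups. Both adult libraries lay above both pup libraries for each gene, and the order within the pair was opposite at the 2 ages.

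The B1 over B2 ratio was 5.88 (5.46 to 6.34) and 3.22 (3.01 to 3.44) in the adults, against 0.255 (0.192 to 0.335) and 0.402 (0.355 to 0.455) in the pups. B1 thus made up 85.5% and 76.3% of the pair in adult libraries, against 20.3% and 28.7% in pup libraries. The mean log2 ratio was 2.12 ± 0.62 in adult and -1.64 ± 0.46 in pup (SD, n = 2 each), a difference of 3.76, and the smallest gap between an adult and a pup library was 3.0. An exact two-sided permutation test over libraries gave p = 0.333, the smallest value that 2 against 2 libraries allow. Of the 64 Atp6v1b1 counts of pup replicate 1, 61.4 were expected from background, which lies within counting error of the count, so that after subtraction its ratio had only an upper limit, 0.107. Set against pup replicate 2 alone, the difference was 3.43.

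The d subunit links the rotor of the pump to its membrane ring. Atp6v0d2 (ENSMUSG00000028238, chromosome 4, 19876841 to 19922605, minus strand) encodes d2, known from kidney and osteoclasts, and Atp6v0d1 (ENSMUSG00000013160, chromosome 8, 105524465 to 105566047, minus strand) encodes d1. Atp6v0d2 stood at 514 and 218 CPM per kb in the adults and 4.54 and 3.11 CPM per kb in the pups. Atp6v0d1 stood at 32 and 32.5 CPM per kb in the adults and 19.7 and 39.2 CPM per kb in the pups. The d2 values of the ages were far apart, whereas the d1 values of the adults lay between those of the pups.

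The d2 over d1 ratio was 16.1 (14.9 to 17.3) and 6.69 (6.22 to 7.20) in the adults, against 0.230 (0.184 to 0.286) and 0.0794 (0.0670 to 0.0936) in the pups. The mean log2 ratio was 3.37 ± 0.89 in adult and -2.88 ± 1.09 in pup (SD, n = 2 each), a difference of 6.26, again with an exact permutation p of 0.333. Background was expected to give 38.1 of the 114 Atp6v0d2 counts in pup replicate 1, and the ratio there was 0.166 after subtraction. The difference against pup replicate 2 alone was 7.02, and both this and the pooled value were the largest among the 4 pairs for which one was computed.

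The G subunit is part of the outer stalks that hold V1 to V0. Atp6v1g3 (ENSMUSG00000026394, chromosome 1, 138273738 to 138289462, plus strand) encodes G3, the kidney form, and Atp6v1g1 (ENSMUSG00000039105, chromosome 4, 63544772 to 63550750, plus strand) encodes G1. Atp6v1g3 had 757 and 711 counts in adult libraries, against 33 and 15 counts in pup libraries, or 30.7 and 27.1 CPM per kb in the adults and 1.89 and 0.418 CPM per kb in the pups. Atp6v1g1 stood at 134 and 104 CPM per kb in the adults and 23.1 and 59.8 CPM per kb in the pups. Both genes were higher in each adult library than in either pup library, and Atp6v1g1 was the higher of the pair in all 4 libraries.

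The G3 over G1 ratio was 0.229 (0.211 to 0.250) and 0.261 (0.239 to 0.285) in the adults, against 0.0820 (0.0552 to 0.118) and 0.00699 (0.00390 to 0.0116) in the pups. The adult libraries were close to each other and the pup libraries were not: the mean log2 ratio was -2.03 ± 0.13 in adult and -5.35 ± 2.49 in pup (SD, n = 2 each), a difference of 3.32 (exact permutation p = 0.333). Background was expected to give 26.5 of the 33 Atp6v1g3 counts of pup replicate 1, within counting error of the count, and after subtraction the ratio had an upper limit of 0.0529. The difference was 5.08 without pup replicate 1 and 1.56 without pup replicate 2.

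The C subunit joins the stalks at the base of V1 and leaves the pump when V1 and V0 come apart. Atp6v1c2 (ENSMUSG00000020566, chromosome 12, 17284721 to 17329359, minus strand) encodes C2, known from kidney, lung and epididymis, and Atp6v1c1 (ENSMUSG00000022295, chromosome 15, 38661933 to 38692446, plus strand) encodes C1. Atp6v1c2 stood at 25.3 and 12.6 CPM per kb in the adults and 7.37 and 2.01 CPM per kb in the pups, and Atp6v1c1 at 20.7 and 16.2 CPM per kb in the adults and 7.54 and 11.4 CPM per kb in the pups. The adult values of each gene lay above its pup values. Atp6v1c2 shares 2.30% of its exon length with Pdia6.

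The C2 over C1 ratio did not separate the ages. It was 1.23 (1.12 to 1.34) and 0.776 (0.690 to 0.871) in the adults, against 0.978 (0.804 to 1.2) and 0.176 (0.139 to 0.219) in the pups. The difference in mean log2 ratio was 1.23, within the pooled spread of libraries of an age (SD 1.28), with an exact permutation p of 0.667; without pup replicate 1 it was 2.47, and without pup replicate 2 it was -0.0047, with the sign turned. Here 20.6% of the Atp6v1c2 counts and 20.1% of the Atp6v1c1 counts of pup replicate 1 were expected from background, which left the ratio at 0.972. The adult level depended on the length used: with the longest annotated coding transcripts the ratio was 0.629 and 0.398 in the adults, and of raw counts 0.476 and 0.301.

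The a subunit forms the proton channel of V0 and directs the pump to its membrane. Atp6v0a4 (ENSMUSG00000038600, chromosome 6, 38048483 to 38124586, minus strand) encodes a4, the form of kidney and inner ear, and Atp6v0a1 (ENSMUSG00000019302, chromosome 11, 101009452 to 101063719, plus strand) encodes a1. Atp6v0a4 had 0 and 0 counts in adult libraries, against 81 and 3 counts in pup libraries. Background was expected to give 69.7 of the 81 counts of pup replicate 1 (95% Poisson interval of the count 64.3 to 101). The gene shared 6.46% of its exon length with other genes and did not pass the filter on low counts, so it has no fitted fold change.

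With 0 counts, a level up to the floor of 3 counts is still possible, which is 0.230 and 0.216 CPM in the adults. At that floor the a4 over a1 ratio was at most 0.00399 and 0.00400 in the adults, with 992 and 988 Atp6v0a1 counts, against 0.229 (0.178 to 0.290) and 0.00440 (0.000906 to 0.0129) in the pups. After subtraction of background, which lies within counting error of the count, it had an upper limit of 0.109 in pup replicate 1. No fold between ages is given for this pair, as the adults had 0 counts and pup replicate 2 stood at the floor. Atp6v0a1 itself stood at 11.6 and 10.8 CPM per kb in the adults and 7.71 and 7.20 CPM per kb in the pups.

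**Figure D3:**
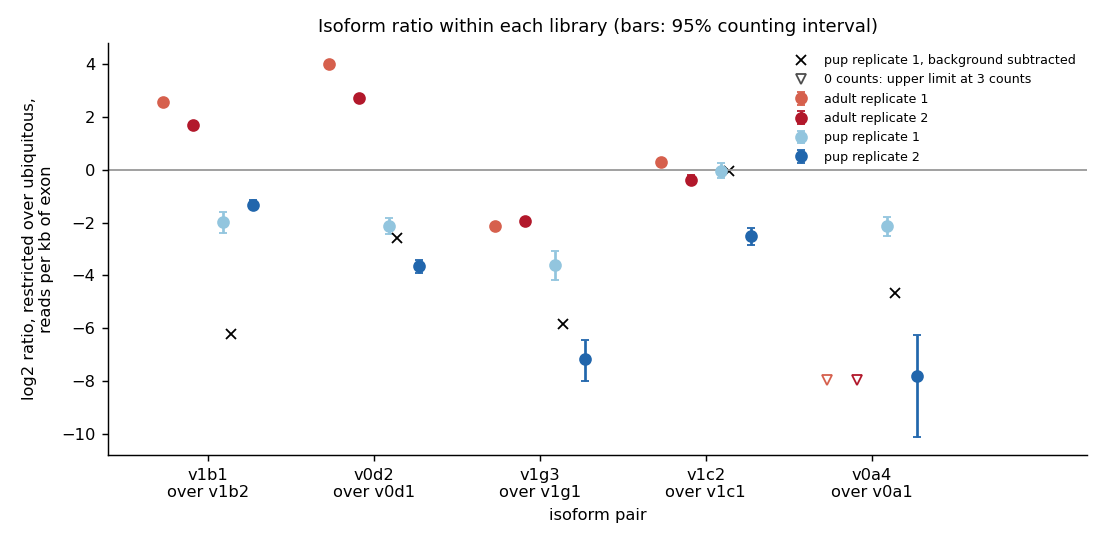
Log2 ratio of the restricted over the ubiquitous isoform, in reads per kb of exon, for each pair (x axis) and library, with 95% counting intervals as bars; crosses give pup replicate 1 after subtraction of background (for Atp6v1b1, Atp6v1g3 and Atp6v0a4 within counting error of 0), and open triangles the upper limit at 3 counts where Atp6v0a4 had 0 counts. The adults lie above the pups for Atp6v1b1, Atp6v0d2 and Atp6v1g3, overlap them for Atp6v1c2, and have upper limits of 0.00399 and 0.00400 in ratio for Atp6v0a4.

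The promoter sequences of the restricted members are shown because of the levels of these genes. For 4 of them both adult libraries lay above both pup libraries, as for 21.8% of all genes tested. The same held for Foxi1 and Tfcp2l1, transcription factors of intercalated cells and ionocytes, while Atp6v0a4 had 0 counts in the adults. Whether these factors act on the members was not tested. RefSeq windows (GRCm38.p6) were at hand for 6 of the 10 members, 4 of them restricted, and the 250 bases before the start site were read on the gene's strand, 5′ to 3′. Atp6v0d2, the restricted member with the highest adult level, had no window. Capitals mark matches, on either strand, to the forkhead core as TGTTTA or TGTTTG, or to a spaced motif like that of TFCP2L1, namely CCAG, then 6 bases of any kind, then CCNG; overlapping matches run together. The Atp6v1b1 window is chr6:83742767-83743016 (plus strand), the Atp6v1g3 window chr1:138273488-138273737 (plus), the Atp6v1c2 window chr12:17324731-17324980 (minus) and the Atp6v0a4 window chr6:38124587-38124836 (minus).
Atp6v1b1: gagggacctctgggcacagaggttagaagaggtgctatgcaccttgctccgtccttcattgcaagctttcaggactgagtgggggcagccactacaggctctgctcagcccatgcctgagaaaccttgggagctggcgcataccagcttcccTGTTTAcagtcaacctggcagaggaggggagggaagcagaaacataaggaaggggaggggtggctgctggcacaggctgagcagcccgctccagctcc
Atp6v1g3: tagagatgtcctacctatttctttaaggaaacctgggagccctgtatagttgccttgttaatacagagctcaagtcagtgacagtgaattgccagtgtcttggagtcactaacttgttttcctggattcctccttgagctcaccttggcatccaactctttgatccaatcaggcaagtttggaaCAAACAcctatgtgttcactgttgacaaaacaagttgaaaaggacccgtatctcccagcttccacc
Atp6v1c2: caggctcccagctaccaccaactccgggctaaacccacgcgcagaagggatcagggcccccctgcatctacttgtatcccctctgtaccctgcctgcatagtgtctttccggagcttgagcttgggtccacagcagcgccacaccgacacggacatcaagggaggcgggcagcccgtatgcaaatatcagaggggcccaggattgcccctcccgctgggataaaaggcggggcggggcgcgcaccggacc
Atp6v0a4: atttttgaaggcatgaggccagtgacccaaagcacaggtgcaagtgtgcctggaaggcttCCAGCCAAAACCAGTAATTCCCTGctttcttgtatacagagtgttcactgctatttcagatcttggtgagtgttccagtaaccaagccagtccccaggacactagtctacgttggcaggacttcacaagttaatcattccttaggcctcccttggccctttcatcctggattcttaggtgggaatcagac

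The Atp6v1b1 window held 1 match to TGTTTA, 98 to 93 bases before the start. The Atp6v1g3 window held 1 match to TGTTTG on the opposite strand, 66 to 61 bases before the start. The Atp6v0a4 window held 2 overlapping matches to the spaced motif, between 190 and 167 bases before the start, and no forkhead core. None of the 3 motifs was in the windows of Atp6v1c2, Atp6v0d1 and Atp6v0a1. By the gene positions given above, the Atp6v1c2 window and the Atp6v0a1 window (chr11:101010148-101010397) lie inside their genes. The bases before the outermost start of these genes were therefore not read. The Atp6v1b1 window also ends slightly inside its gene. Over 32851 windows of 250 bases, 12% held TGTTTA, 16.0% TGTTTG and 8.36% the spaced motif, so that each is common by itself. The share of windows with any of the 3 motifs was not computed. A match is a run of letters and not a measured binding site, and its absence from a window says nothing of the rest of the locus.

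The a position had other isoforms in these cells. Atp6v0a2, the a2 form of endosomes and Golgi, made up 42.7% and 36.6% of the summed level of a1 to a4 per kb of exon in adult libraries, against 27.8% and 48.8% in pup libraries. Tcirg1, which encodes a3, known from osteoclasts and lysosomes, made up 31.5% and 34.6% in adult libraries, against 35.0% and 16.7% in pup libraries, and Atp6v0a1 25.8% and 28.8% in adult libraries, against 30.3% and 34.3% in pup libraries. The highest share of any isoform was 48.8%, and the order of a1 to a3 differed between the pup libraries. After subtraction of background the shares in pup replicate 1 were 28.7% for a2, 38.1% for a3, 32% for a1 and 1.27% for a4. Atp6v0a2 and Tcirg1 had log2 fold changes of adult over pup of 0.93 ± 0.49 and 1.13 ± 0.59 (SE, 2 libraries per age), neither of which passed edgeR's test (adjusted p = 0.467 and 0.465).

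Of the 10 members, 9 passed the filter on low counts, and all 9 had a positive log2 fold change of adult over pup, as did 42.9% of the 16320 genes tested. Their median was 1.52, against -0.24 over all genes tested. The median was 4.57 over the 4 restricted members tested and 0.81 over the 5 ubiquitous ones, and within each of the 4 pairs tested the restricted isoform had the larger value. By edgeR's quasi-likelihood test, adjusted over all genes, 0 members were called (background 0% of genes higher and 0% lower in adult). At an unadjusted p under 0.05 the 4 restricted members and Atp6v1g1 were higher in adult, where 5.99% of all genes tested were, and 0 members were lower, where 8.49% of genes were. DESeq2 called 3 members higher in adult, Atp6v1b1, Atp6v0d2 and Atp6v1g3, and 0 lower, where it called 3.97% of genes higher and 5.61% lower. Both adult libraries lay above both pup libraries for 8 of the 9 in CPM, as for 21.8% of all genes tested, and below both for 0 members, as for 27.1% of genes.

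The log2 fold change was 6.58 ± 1.0 for Atp6v0d2 (SE; edgeR adjusted p = 0.164) and 4.46 ± 0.72 for Atp6v1b1 (edgeR adjusted p = 0.164). It was 4.67 ± 0.90 for Atp6v1g3 and 2.02 ± 0.83 for Atp6v1c2, with edgeR adjusted p of 0.196 and 0.344. Among the ubiquitous members it ran from 0.13 ± 0.52 for Atp6v0d1 to 1.52 ± 0.61 for Atp6v1g1 (edgeR adjusted p = 0.946 and 0.328), with Atp6v1b2 at 0.81 ± 0.49, Atp6v1c1 at 0.96 ± 0.48 and Atp6v0a1 at 0.59 ± 0.44. The sign for Atp6v0d1 was negative under upper-quartile factors (-0.0022), library totals (-0.13), after background subtraction (-0.02) and without pup replicate 1 (-0.28).

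Atp6v1b1, Atp6v0d2 and Atp6v1g3 passed edgeR's test when either adult library was left out, fits in which many more genes passed than with all 4 libraries. Without adult replicate 1, 1.4% of genes tested were called higher and 0.987% lower in adult, and without adult replicate 2, 1.51% higher and 4.49% lower. Without adult replicate 1 the edgeR adjusted p was 0.000236, 0.000305 and 0.0201 in that order, without adult replicate 2 it was 0.000548, 0.00637 and 0.00110, and it was 0.349 for each without pup replicate 1 and 0.335 for each without pup replicate 2. DESeq2 gave adjusted p of 5.39e-10, 1.43e-22 and 0.000130 with all 4 libraries. The log2 fold changes ran over 3.93 to 5.3, 5.78 to 7.07 and 3.93 to 6.10 with 1 library left out.

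**Figure D4:**
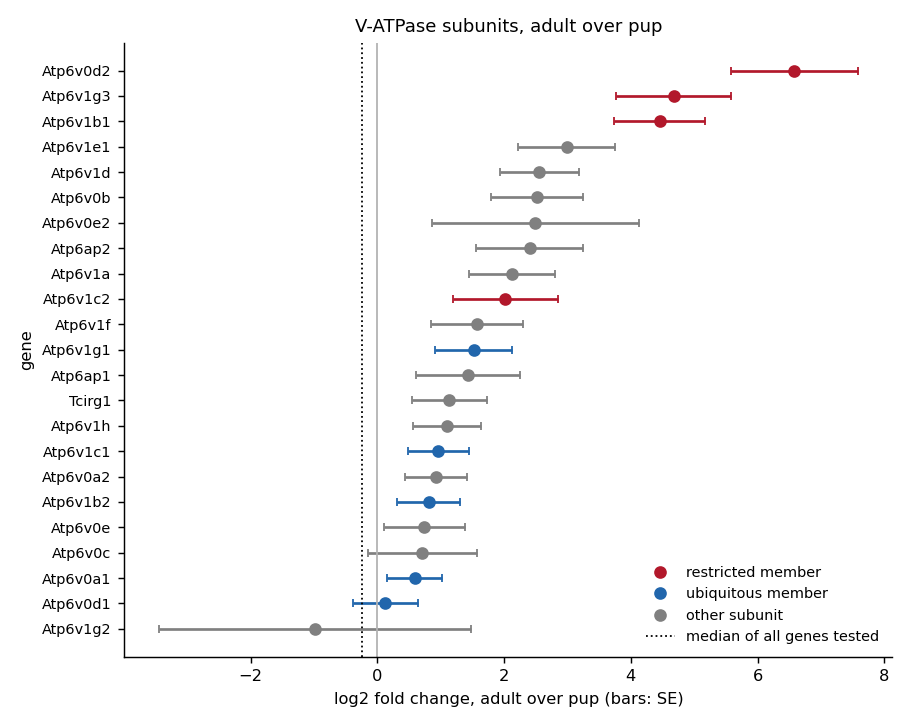
Log2 fold change of adult over pup (x axis) with its standard error for the 23 V-ATPase subunit genes tested, 2 libraries per age; restricted members are red, ubiquitous members blue and other subunits grey, and the dotted line is the median of all genes tested (-0.24). Atp6v0d2, Atp6v1g3 and Atp6v1b1 head the order at 6.58, 4.67 and 4.46; none passed edgeR's adjusted threshold with all 4 libraries.

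Of 15 other subunit genes, 14 were tested and 13 had a positive log2 fold change, as did 42.9% of all genes tested. Their median was 1.5. EdgeR called 0, while DESeq2 called 5 higher in adult and 0 lower, where it called 3.97% of all genes higher and 5.61% lower. The 5 were Atp6v1e1 (2.99 ± 0.76, SE), Atp6v1d (2.56 ± 0.63), Atp6v0b (2.52 ± 0.72), Atp6ap2 (2.40 ± 0.84) and Atp6v1a (2.12 ± 0.68). Atp6v1a encodes the catalytic A subunit, Atp6v1e1 and Atp6v1d a stalk and a rotor subunit, Atp6v0b the c″ subunit of the membrane ring, and Atp6ap2 an accessory protein also known as the prorenin receptor. By mean CPM over all 4 libraries, the 4 most abundant were Atp6ap2, Atp6v1e1, Atp6ap1 and Atp6v1a. Atp6ap2 stood at 947 and 525 CPM in adult libraries, against 76.9 and 201 CPM in pup libraries. Atp6ap1, an accessory subunit of V0, stood at 655 and 459 CPM in adult libraries, against 92.9 and 321 CPM in pup libraries. Both adult libraries lay above both pup libraries for all 13 genes with a positive value, as for 21.8% of all genes tested. The remaining gene, Atp6v1g2, the neuronal G2, had 0 and 16 counts in adult libraries, against 20 and 3 counts in pup libraries. Atp6v1e2, the testis form of E, had 0 counts in 3 libraries and 32 in pup replicate 1, with 18.3 expected from background.

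Summed over isoforms, the level at the B position was 84.2 and 69.3 CPM per kb in the adults and 7.78 and 14.2 CPM per kb in the pups. The A position, which has 1 gene, stood at 89.5 and 58.0 CPM per kb in the adults and 11.5 and 22.3 CPM per kb in the pups. B was above A in adult replicate 2 and below it in the other 3 libraries. After subtraction of background, pup replicate 1 had 4.75 CPM per kb at the B position and 10 CPM per kb at the A position. The d position stood at 547 and 250.1 CPM per kb in the adults and 24.3 and 42.3 CPM per kb in the pups, with a log2 ratio of the age means of 3.58, the largest of the 13 positions. The a position had 44.9 and 37.7 CPM per kb in the adults and 25.4 and 21 CPM per kb in the pups, a log2 ratio of 0.83. Levels at the c position are uncertain, because Atp6v0c has close copies: the pseudogene Atp6v0c-ps2 had 1037 and 699 counts in adult libraries, against 121 and 703 counts in pup libraries, more than Atp6v0c itself (265 and 184 counts in adult libraries, against 91 and 202 counts in pup libraries).

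**Figure D5:**
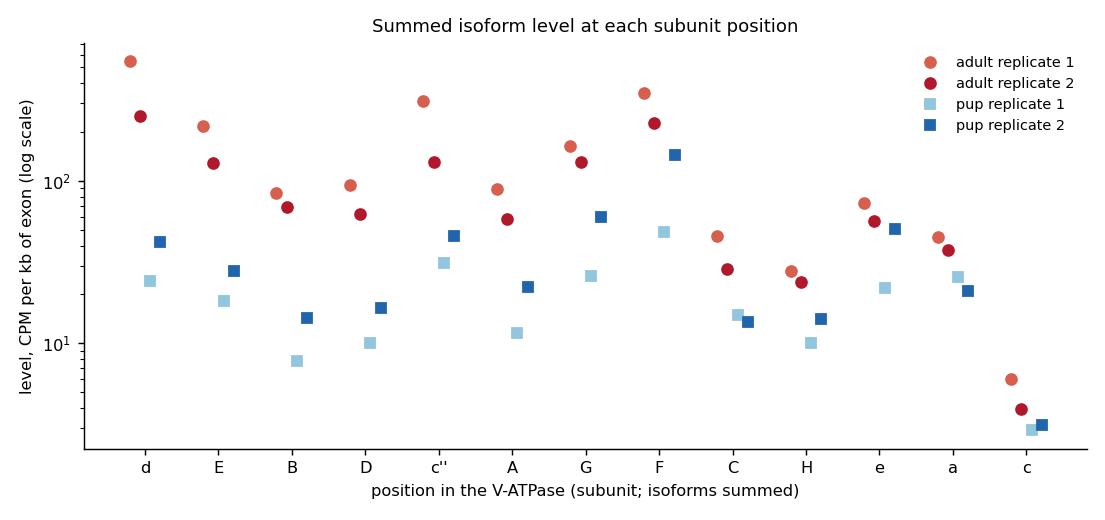
Summed isoform level at each subunit position of the V-ATPase, in CPM per kb of exon on a log scale, for the 2 adult (circles) and 2 pup (squares) libraries, ordered by the log2 ratio of the age means. The d position has the largest ratio (3.58) and the c position the smallest (0.71).

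Genes that assemble or control the pump and genes of lysosomes were read beside the isoforms. For comparison, 42.9% of all genes tested were positive, and DESeq2 called 3.97% of genes higher and 5.61% lower in adult. Of 10 assembly factors and regulators of the pump, all tested, 7 were positive with a median of 0.23 and 0 were called by edgeR or DESeq2. In pup replicate 1, 29.1% of the summed counts of these 10 genes were expected from background. Oxr1 stood at 178 and 197 CPM in adult libraries, against 136 and 182 CPM in pup libraries. Ncoa7 stood at 48.5 and 43.1 CPM in adult libraries, against 80.4 and 44.7 CPM in pup libraries. Both belong to a family of proteins that bind the pump. Of 17 lysosomal genes, where the ubiquitous pump works, 11 were positive with a median of 0.49, and DESeq2 called 2 higher in adult and 0 lower, edgeR 0. Among them was Tfeb, a transcription factor of lysosomal genes (1.69 ± 0.48, SE). Psap stood at 869 and 1078 CPM in adult libraries, against 570 and 1105 CPM in pup libraries, and Ctsb at 942 and 1018 CPM in adult libraries, against 412 and 986 CPM in pup libraries, so that the ages overlapped for both.

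Marker lists of other cell types also differed in level between libraries. Over all genes tested, 42.9% were positive, and DESeq2 called 3.97% of genes higher and 5.61% lower in adult. All 14 ionocyte markers outside the pump had a positive log2 fold change (median 6.14; edgeR called 0, DESeq2 11 higher), and their summed level was 11051 and 6482 CPM in adult libraries, against 348 and 440.0 CPM in pup libraries. The smallest value among them was that of Moxd1 (0.04), which was -0.08 after background subtraction. Its ages overlapped. Tfcp2l1 stood at 1870 and 2078 CPM in adult libraries, against 104 and 171 CPM in pup libraries. Foxi1 stood at 1201 and 793 CPM in adult libraries, against 4.22 and 7.72 CPM in pup libraries, with 84.8% of its counts in pup replicate 1 expected from background. All 8 epithelial markers were positive (median 1.79), with sums of 9811 and 13724 CPM in adult libraries, against 1828 and 4331 CPM in pup libraries. DESeq2 called 4 of them higher in adult, the keratin gene Krt18, the claudin genes Cldn4 and Cldn7, and Epcam, an adhesion gene. The smallest value in this list was that of Krt19 (0.10), for which the ages overlapped. All 9 mesenchymal markers were negative (median -1.82, DESeq2 0 called), but their sum of 1257 CPM in adult replicate 1 was far from the 22444 CPM in adult replicate 2, against 26112 and 59746 CPM in pup libraries. The collagen genes Col3a1 and Col1a2 were the most abundant of them. Acinar markers summed to 551 and 45525 CPM in adult libraries, against 609 and 2072 CPM in pup libraries. Mucl2 and Prol1, genes of secreted salivary proteins, made up most of the sum in adult replicate 2, with 37832 and 7058 CPM there. The other 8 acinar markers summed to 108 and 636 CPM in adult libraries, against 585 and 1941 CPM in pup libraries. DESeq2 called Mucl2 and Prol1 higher in adult, and Smgc, Dcpp1, Dcpp2 and Dcpp3 lower. Basal and myoepithelial markers summed to 5127 and 2180 CPM in adult libraries, against 4898 and 14222 CPM in pup libraries, with Acta2 and Krt14 the most abundant. Of their 6 tested, 0 were positive, and DESeq2 called Krt14 lower in adult. EdgeR called 0 in each list. Of the summed counts in pup replicate 1, background was expected to give 32% for the ionocyte, 1.90% for the epithelial, 0.343% for the mesenchymal, 6.48% for the acinar and 0.919% for the basal and myoepithelial markers. Adult replicate 2, with the more acinar and mesenchymal RNA, had the lower B1 over B2, d2 over d1 and C2 over C1 ratio of the adults and the higher G3 over G1 ratio. The part of these cells in the isoform ratios was not tested.

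Because d2 and a3 are also forms of osteoclasts and macrophages, markers of those cells were read too. Their 16 genes summed to 138 and 233 CPM in adult libraries, against 300.4 and 390 CPM in pup libraries. Without Ctsk and Acp5, the 2 most abundant, the other 14 summed to 71.2 and 87.3 CPM in adult libraries, against 149 and 67.1 CPM in pup libraries. The adult sums then lay between the pup sums. Where 42.9% of all genes tested were positive, 6 of the 12 markers tested were (median -0.55, edgeR called 0). DESeq2 called 1 of them higher and 2 lower in adult, where it called 3.97% of all genes higher and 5.61% lower. Background was expected to give 30.0% of the summed counts of all 16 markers in pup replicate 1. Cd14, a monocyte and macrophage gene, stood at 35.3 and 62.1 CPM in adult libraries, against 9.42 and 2.99 CPM in pup libraries, and DESeq2 called it higher in adult (log2 fold change 2.98 ± 0.79, SE). Aif1, another macrophage gene, stood at 3.30 and 3.53 CPM in adult libraries, against 0.541 and 1.58 CPM in pup libraries. It had 5 counts in pup replicate 1, where 21.5 were expected from background. DESeq2 called Mmp9 and Mrc1 lower in adult, each with 0 counts in both adults, and 59.1% of the Mmp9 and 109% of the Mrc1 counts of pup replicate 1 were expected from background. Adgre1, Calcr, Oscar and Ocstamp had 0 counts in both adults and in pup replicate 2. In pup replicate 1 they had 43, 119, 38 and 13 counts, with 45.4, 54.9, 25.9 and 51.3 expected from background. Other listed markers had adult counts: Lyz2 118 and 185, Tyrobp 105 and 11, Cd68 22 and 26, and Dcstamp 0 and 37. In pup libraries they had 114 and 120, 3 and 27, 29 and 114, and 128 and 0 counts, in that order. Background in pup replicate 1 was expected to give 18.5, 9.35, 17.6 and 37.4 of them. Ptprc, the pan-leukocyte marker, had 101 and 33 counts in adult libraries, against 594 and 0 counts in pup libraries, with 257 of the 594 expected from background. Csf1r had 79 and 9 counts in adult libraries, against 37 and 5 counts in pup libraries. The background expected for Csf1r in pup replicate 1 was 81.0 counts, more than the 37 seen. Atp6v0d2 had 18234 and 8210 counts in adult libraries, against 114 and 161 counts in pup libraries. Acp5, an enzyme of osteoclasts that other cells also make, stood at 63.1 and 30.3 CPM in adult libraries, against 13.1 and 30.6 CPM in pup libraries. Ctsk, another such enzyme, stood at 3.53 and 116 CPM in adult libraries, against 138 and 292 CPM in pup libraries. The part of macrophages or osteoclasts in the isoform levels was not tested, and bulk counts do not show which cells a transcript came from.

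Non-members were ranked by how close their profile over the 4 libraries came to the median profile of the 5 restricted members, with log2(CPM + 1) centred on its own mean. Among 4301 genes of at least 50 mean CPM, the 6 closest were Myh14, Oasl2, Sp100, Scnn1a, Itpr2 and St14, with root mean square differences of 0.24 to 0.34. They encode a non-muscle myosin, an interferon-induced protein related to oligoadenylate synthetases, a nuclear body protein, the alpha subunit of the epithelial sodium channel, an inositol trisphosphate receptor and the protease matriptase. Scnn1a, as an example, stood at 235 and 158 CPM in adult libraries, against 10.8 and 10.5 CPM in pup libraries. Background was expected to give 20.2% (St14) to 85.7% (Myh14) of the counts of these 6 genes in pup replicate 1, and 58.0% for Scnn1a, as it was for most of the Atp6v1b1, Atp6v1g3 and Atp6v0a4 counts behind the median profile. Atp6v0a4, with 0 counts in the adults, does not follow this median profile.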

How the data were processed

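Messenger RNA of sorted cells was sequenced in 2 adult and 2 pup libraries. The SMART-Seq HT kit, per the labels, made the libraries; it amplifies full-length cDNA by PCR and does not mark strand. The authors deposited raw counts of reads for each Ensembl gene in each library. The submitters' processing notes name cutadapt 1.18, STAR 2.5.2a, HTSeq 0.11.0, R 3.5.1, DESeq2 1.20.0 and GRCm38; for the strand setting and annotation release, the sources used here give nothing. HTSeq's tallies of unassigned reads (31.5% to 84.4% of all reads tallied) stayed out of library sizes and tests. The 8 value columns of 2 tables of the whole series were not used, since their names match no single sample.

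Symbols, positions and exon lengths (union of exons) came from GENCODE vM21. The main test was edgeR 4.0.16's quasi-likelihood F test in R 4.3.3 (TMM, filterByExpr with minimum count 10 and total 15, age as the only term, Benjamini-Hochberg adjusted p under 0.05); SE is the log2 fold change over the root of F. CPM are TMM-scaled. Ratios used reads per kb, and log2 ratios added 0.5 counts to each gene. Background was the count per kb over olfactory receptor genes times exon length, with a factor of 0.5 for X and Y genes. Alternatives were other scaling factors, filters, DESeq2 1.42.0, limma 3.58.1 (voom), a replicate block, background subtraction, other pseudocounts and lengths, and each library left out. EdgeR and DESeq2 were tested on simulated data. Libraries of an age differed by more than counting error (chi-square over its degrees of freedom was 222 in adult and 155 in pup), so each counted once. Named were all members, Fgf10 and Foxi1, all other subunits, genes from each other list among its 2 most abundant, those DESeq2 called (for the ionocyte list by count only) and its defining markers, and the 6 nearest profiles. Aif1, the other macrophage and osteoclast genes outside these rules, Moxd1, Krt19, Atp6v0c-ps2 and the promoter choice were added after values were seen. The members and lists were chosen with earlier results of these data known. The values of 1 gene of the lysosomal list are not reported here.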

Additional observations from a re-analysis of the deposited data

How the results depend on the processing

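With all 4 libraries edgeR called 0 genes higher and 0 lower in adult (978 and 1385 at an unadjusted p under 0.05; smallest adjusted p 0.141). The numbers were 284 and 231 with no filter, 13 and 2 with 10 counts in every library of an age, 610 and 862 by DESeq2, 15 and 2 after background subtraction, and 0 to 247 and 0 to 733 when 1 library was left out (229 and 161 with adult replicate 1 left out, 247 and 733 with adult replicate 2 left out, 0 and 0 with either pup library left out); the cause was not tested. They were 0 and 0 under the other scalings, limma-voom and the replicate block. Same-numbered libraries did not deviate together (r = -0.035 across genes), so the replicate numbers are not taken to pair the libraries; the block changed no member's call, and with it the log2 fold changes of Atp6v1b1, Atp6v0d2 and Atp6v1g3 were 4.59, 6.47 and 4.99. With no filter these 3 were called at log2 fold changes of 4.53, 6.76 and 4.92 (adjusted p 0.000310, 5.53e-05 and 8.47e-05), and by DESeq2 at 4.42, 6.52 and 4.57. Over 13 alternatives their adjusted p ran up to 0.349 each. Leaving out 1 library, where the lone library of an age is assumed to vary like the other age, gave 3.93 to 5.3, 5.78 to 7.07 and 3.93 to 6.10. The Atp6v0d1 value turned to -0.0022 under upper-quartile factors, -0.13 under library totals, -0.016 after background subtraction, and ran from -0.28 to 0.71 with 1 library left out. The B1 over B2 difference moved to 5.76 with background subtracted in pup replicate 1 or in all 4 libraries, a value that rests on a count within counting error of background. The C2 over C1 difference ran from -0.0047 (without pup replicate 2) to 2.47 (without pup replicate 1). All other ratio differences stayed within 1 pooled SD, 33 of 36 in all. The median of all genes shifted by -0.18 and -0.38 under upper-quartile factors and library totals, and by 0.18 under limma-voom; ratios do not depend on scaling. No difference was computed for Atp6v0a4 over Atp6v0a1, and without the filter its fitted value depends on the prior count. With 2 libraries per age no exact permutation p can fall below 0.333, and pup replicate 1 limits what can be said of low genes in pup.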
